A study of Solanum lycopersicum with 2 samples.

Results

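The genes described here are 66 tomato (Solanum lycopersicum) genes that were abundant and at least 10-fold higher in young leaves than in anthers. They were chosen by their measured levels from 25923 genes listed in either library: a mean of the leaf and anther levels of at least 100 reads per 1000000 mapped reads (RPM), and a ratio (leaf RPM + 1) / (anther RPM + 1) of at least 10. The mean was reached by 1248 genes, of which 66 (5.29%) also met the ratio. The level and the ratio of each gene are therefore descriptions of what the choice used, and no test was made of them. Both libraries were made by MACE, which sequences reads from the last 500 bp of polyadenylated transcripts so that a transcript is meant to give 1 read whatever its length. Levels of different genes are set side by side here on that basis. There was 1 library per tissue, both from cultivar Moneymaker plants 8 weeks old, untreated, in a glasshouse with 16 h light at 24°C and 8 h dark at 20°C. The anther library joined several developmental stages, and how many plants went into a library is not given in the sources used here. Neither tissue was replicated, so each difference below is a difference between 2 single libraries, and no p-value is given.

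A leaf is the main photosynthetic organ, and a young leaf makes large amounts of messenger RNA for nuclear-encoded chloroplast proteins, such as the light-harvesting chlorophyll-binding proteins and the small subunit of Rubisco. Many such proteins come from multigene families with near-identical copies, some of them side by side on a chromosome. An anther holds the developing pollen, the tapetum that nourishes it and the wall around both. The files give identifiers of the Solyc type and do not pair them with names, and 0 of the 25923 identifiers matched a RefSeq gene table of 41476 genes (assembly SLM_r2.1). No name or function is therefore given to any of the 66 genes, and marker genes of leaf or anther cells were not used here. In such an identifier the digits before g give the chromosome, and the number after g increases along it. The digits 00, called chromosome 0 here, are an exception: numbers there are not taken as positions along a chromosome.

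The 66 genes together took a large part of the leaf messenger RNA and little of the anther messenger RNA. Among reads on listed genes they made up 13.7% in leaf (exact 95% binomial interval 13.7% to 13.8%) and 0.788% in anther (0.782% to 0.794%). Their levels summed to 99656 RPM in leaf and 5452 RPM in anther, an 18.3-fold difference. These intervals cover counting error only. Fewer cells of a type and less RNA per cell cannot be told apart in such whole-organ libraries. Over all genes, 11124 were higher in the leaf library, and their excesses over the anther library summed to 353302 RPM. The 66 genes supplied 94204 RPM of it, or 26.7%.

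**Figure D1:**
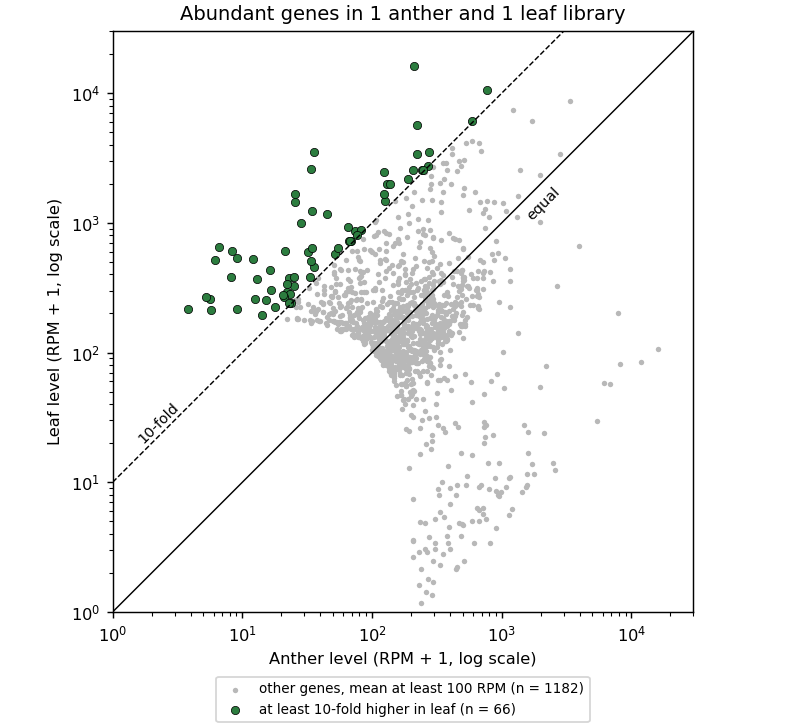
Leaf level against anther level (RPM + 1, log scales) of the 1248 genes whose mean reached 100 RPM; each point is a gene, the solid line marks equal levels and the dashed line a 10-fold ratio. The 66 chosen genes (green) lie on or above the dashed line, with anther levels from 2.82 to 769 RPM and leaf levels from 193 to 16047 RPM.

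A few genes carried most of the leaf total. The gene highest in leaf held 16.1% of the reads on the 66 genes, the 3 highest 32.8%, the 10 highest 56.9% and the 20 highest 77.0%, and 8 genes sufficed for 50%. The 10 highest held 7.83% of all leaf reads on listed genes and 0.413% of the anther reads. The median leaf level was 622 RPM (quartiles 328 and 1673 RPM). By leaf rank all 66 lay among the 514 most abundant genes of the leaf library, 27 among the 100 most abundant and 7 among the 20 most abundant.

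The most abundant gene of the leaf library was one of the 66. Solyc02g085950.2 on chromosome 2 had 16047 RPM in leaf and 209 RPM in anther, and it alone took 2.21% of the leaf reads on listed genes. Solyc07g066310.2 on chromosome 7 followed with 10583 RPM in leaf and 769 RPM in anther. Both were far above the median leaf level of the set, but their ratios differed: 76.3 for Solyc02g085950.2 and 13.7 for Solyc07g066310.2. Solyc10g006230.2 had 6079 RPM in leaf and 584 RPM in anther, and Solyc07g064160.2 had 5707 RPM and 221 RPM. At 3528 RPM in leaf, Solyc04g007790.2 was close to Solyc05g056070.2 at 3508 RPM. Their anther levels were 34.4 and 273 RPM, so genes with nearly the same leaf level were 99.7-fold and 12.8-fold apart between the tissues. The other four of the 10 highest were Solyc10g007690.2 (3375 RPM in leaf), Solyc08g006930.2 (2723 RPM), Solyc08g082190.2 (2616 RPM) and Solyc02g084440.2 (2573 RPM). In anther they had 222, 269, 32.7 and 243 RPM in the same order, which left Solyc08g082190.2 well below the others in that library.

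**Figure D2:**
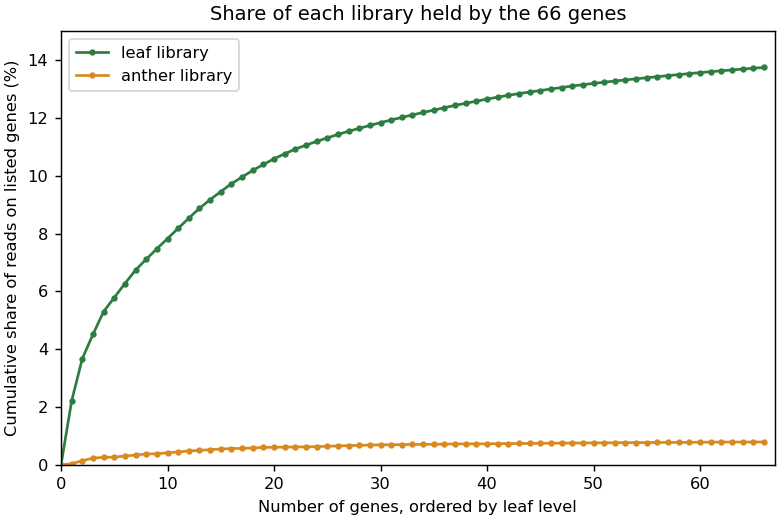
Cumulative share of the reads on listed genes held by the 66 genes, added in order of their leaf level, in the leaf library (green) and in the anther library (orange). The leaf curve climbs steeply over the first 10 genes to 7.83% and ends at 13.7%, while the anther curve ends at 0.788%.

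Ratios ran from just over the threshold to about 100. The median ratio was 15.1, a median log2 ratio of 3.92, beside -0.18 for all 1248 genes of that level. Most genes lay in the lower part of the range: 11 had ratios of 10 to 11, 20 of 11 to 15, 13 of 15 to 25, 11 of 25 to 50 and 11 of 50 to 100. The 11 genes with ratios over 50 nevertheless held 28.2% of the reads of the set in leaf. For 62 of the 66 genes the lower 95% counting bound of the plain RPM ratio, without the added 1 RPM, was at least 10. The bound comes from the same counts as the choice, so it describes counting error and is no separate support.

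The 5 largest ratios, ordered with the added 1 RPM, belonged to genes of very different abundance. Solyc04g007790.2, with the levels given above, was 103-fold higher in leaf by the plain RPM ratio (exact conditional Poisson interval 93.2 to 113). Solyc08g082120.2 had 649 RPM in leaf and 5.56 RPM in anther, a plain ratio of 117 (92.2 to 150). Solyc01g107460.2 had 515 RPM and 5.16 RPM, a plain ratio of 99.9 (78.1 to 130). The intervals of these 3 genes overlap, so their order cannot be read from these counts. The plain ratio was 80.0 (72.5 to 88.4) for Solyc08g082190.2 and 76.6 (73.7 to 79.7) for Solyc02g085950.2. By the plain ratio Solyc03g097870.2, sixth with the added 1 RPM, lay above both at 83.2 (68.0 to 104), with an interval that covers both values. It was named after its values were seen. Of these 6 intervals that of Solyc02g085950.2, the gene with the most reads, is the narrowest.

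**Figure D3:**
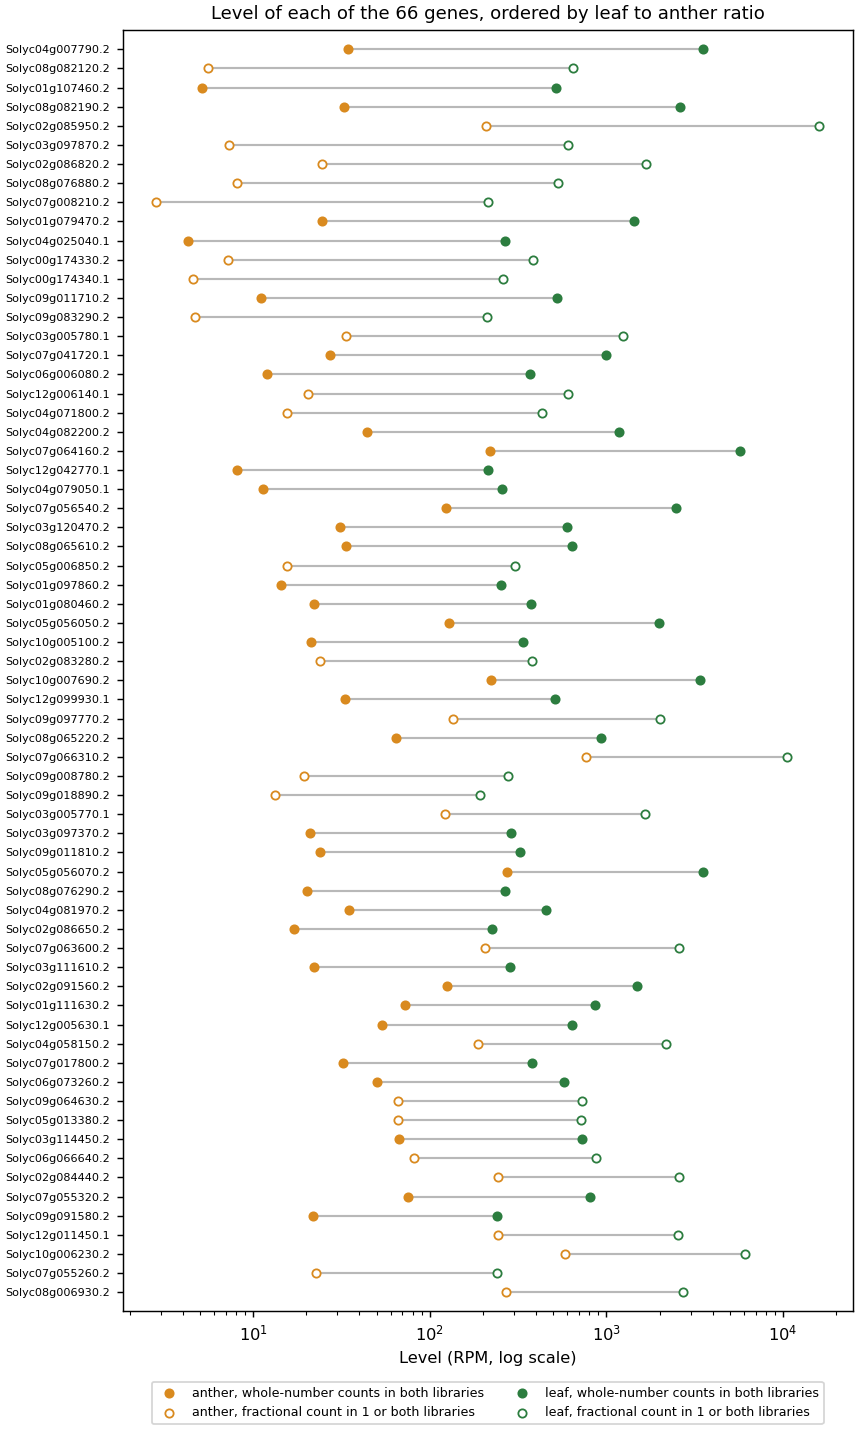
Level of each of the 66 genes in the anther library (orange) and in the leaf library (green) in RPM on a log scale, 1 line per gene, ordered by the ratio (leaf RPM + 1) / (anther RPM + 1) from 10.1 at the bottom to 99.7 at the top; open circles mark genes with a fractional count in either library. Genes of high and of low leaf level occur along the whole order, and the lowest anther levels lie in the upper part.

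The threshold cut through a continuous range of ratios. Just inside, Solyc08g006930.2 had a ratio of 10.1 with 2723 RPM in leaf, Solyc07g055260.2 a ratio of 10.1 with 240 RPM, and Solyc10g006230.2 a ratio of 10.4 with 6079 RPM. Just outside, Solyc09g065620.2 had a ratio of 9.95 with 231 RPM in leaf, Solyc02g082760.2 a ratio of 9.92 with 1055 RPM, and Solyc07g040950.2 a ratio of 9.84 with 252 RPM. There were 16 genes of at least 100 RPM with ratios of 9 to 10, against 11 with ratios of 10 to 11. The limit on the mean also passed through a continuous range. Solyc09g018890.2 had the lowest mean inside (103 RPM), and Solyc01g006560.2 the highest mean outside among genes with the ratio (94.9 RPM). A further 47 genes with the ratio had means of 50 to 100 RPM.

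No gene of the set was missing from the anther library. All 66 were listed there, with a median of 31.5 RPM (quartiles 16.0 and 80.0 RPM), while the median listed anther gene had 4.43 RPM. Of the 66 genes, 64 lay above that median. Levels under 10 RPM were found for 10 genes, 10 to 25 RPM for 21, 25 to 50 RPM for 10, 50 to 100 RPM for 9, 100 to 200 RPM for 6 and over 200 RPM for 10. So 16 of the 66 genes were at 100 RPM or more in anther too, and 16 ranked among its 1000 most abundant genes. The 10 genes over 200 RPM in anther held 55.9% of the reads of the set in leaf.

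At the upper end, Solyc07g066310.2 was the 69th most abundant gene of the anther library with 769 RPM. Solyc10g006230.2 was the 116th with 584 RPM and Solyc05g056070.2 the 387th with 273 RPM. These 3 genes supplied 29.8% of the anther reads on the 66 genes. At the lower end, Solyc07g008210.2 had 2.82 RPM in anther (35.0 reads) and 214 RPM in leaf, Solyc04g025040.1 had 4.27 RPM (53 reads) and 267 RPM, and Solyc00g174340.1 had 4.59 RPM (57 reads) and 259 RPM. Even the lowest of them was well above the 0.242 RPM that 3 reads are worth in the anther library, the limit that a count of 0 allows. Genes listed in leaf alone, 1385 in number, could not enter the set, because the highest of them had 31.6 RPM.

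The set was spread over most chromosomes. Members lay on each of chromosomes 1 to 12 except chromosome 11, and others were listed under chromosome 0. The counts were 2 on chromosome 0, 5 on chromosome 1, 6 on chromosome 2, 7 on each of chromosomes 3, 4 and 8, 4 on chromosome 5, 3 on each of chromosomes 6 and 10, 9 on chromosome 7, 8 on chromosome 9 and 5 on chromosome 12. Chromosomes 7 and 2 held 24.0% and 22.5% of the leaf reads of the set, most of it from their top genes. Members made up 5.29% of all genes of at least 100 RPM. By chromosome this share was 2.07% on chromosome 6, 2.08% on 1, 4.40% on 5, 4.58% on 2 and 5.98% on 3. It was 6.25% on chromosome 10, 6.36% on 4, 7.45% on 8, 7.83% on 7 and 7.84% on 9. The highest shares were 17.2% on chromosome 12 (5 of 29 genes) and 28.6% under chromosome 0 (2 of 7 genes). Chromosome 11 had only 19 genes of that level. The strand was recorded as wat for 40 members and as cri for 26, or 60.6% wat, beside 49.9% among all genes of at least 100 RPM.

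Identifier numbers at most 20 apart on the same numbered chromosome (chromosome 0 left out) joined 4 of the 66 genes (6.06%) into 2 pairs. The share among all genes of at least 100 RPM was not computed, so this count cannot be called high or low. The first pair was Solyc03g005770.1 and Solyc03g005780.1, next to each other and on the same strand. Solyc03g005770.1 had 1658 RPM in leaf and 122 RPM in anther (ratio 13.5), and Solyc03g005780.1 had 1244 RPM and 33.5 RPM (ratio 36.1). Solyc03g005770.1 was thus 1.33-fold above its neighbour in leaf and 3.65-fold above it in anther. The genes on either side were also higher in leaf but missed the threshold. Solyc03g005760.1, on the other strand, had 4111 RPM in leaf and 531 RPM in anther (ratio 7.73), which is more in leaf than either member. Solyc03g005790.2 had 132 RPM and 25.3 RPM (ratio 5.07). All 4 of these genes had fractional counts in both libraries, and how reads were assigned among them is not known. The flanking genes were named after their values were seen.

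The second pair was Solyc05g056050.2 and Solyc05g056070.2, numbered 20 apart and on opposite strands. The former had 1990 RPM in leaf and 128 RPM in anther (ratio 15.4), the latter 3508 RPM and 273 RPM (ratio 12.8). Both had whole-number counts. Between them lay Solyc05g056060.2, which was near equal in both tissues at 36.1 RPM in leaf and 27.5 RPM in anther. By read counts the strong leaf excess of the pair did not extend to the gene between. That gene is on the strand of Solyc05g056070.2 and was deposited with the same peak height, which exceeds its own reads. How reads were assigned to these 2 genes is not known, so its near-equal level is uncertain. Of the 11 other genes listed within 50 identifier units of the pair, 1 was at least 2-fold higher in leaf.

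A further pair of neighbouring identifiers was listed under chromosome 0, where the numbers are not taken as positions. Solyc00g174330.2 had 384 RPM in leaf and 7.17 RPM in anther (ratio 47.1), and Solyc00g174340.1 had 259 RPM and 4.59 RPM (ratio 46.5). They were numbered 10 apart, on the same strand, both low in anther and nearly equal in ratio. Both had whole counts in anther and fractional counts in leaf. At wider distances, members 60 apart on chromosome 7, 70 apart on chromosome 8 and 100 apart on chromosome 9 were each separated by other genes. None of the 5 genes between them on chromosome 7 and of the 9 on chromosome 9 was at least 2-fold higher in leaf, but 2 of the 4 on chromosome 8 were. On chromosome 8, Solyc08g082120.2 and Solyc08g082190.2 were both among the 5 largest ratios. The gene numbered next to the former, Solyc08g082130.2, had 23.9 RPM in leaf and 0.161 RPM in anther, the latter from 2 reads, while Solyc08g082160.2 further on was higher in anther (65.1 RPM in leaf, 234 RPM in anther).

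**Figure D4:**
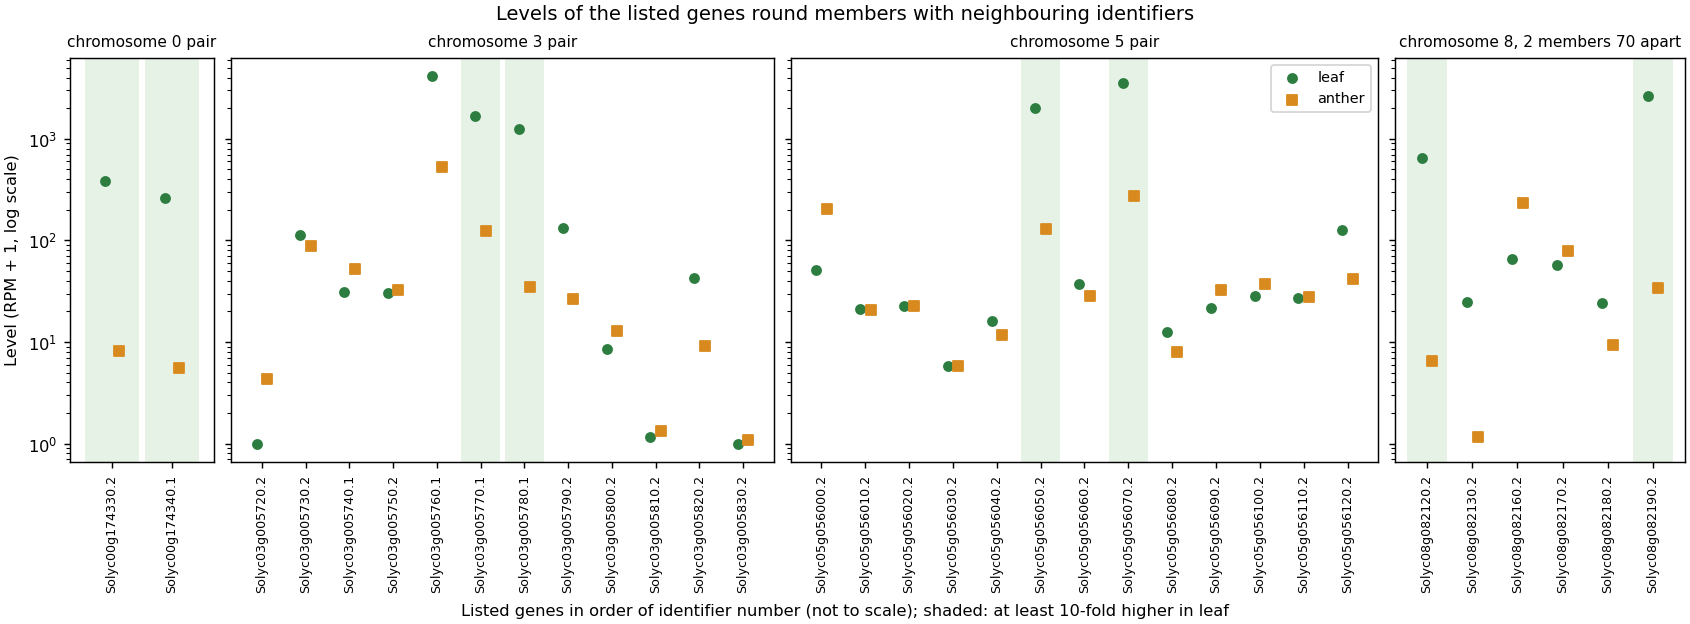
Leaf (green circles) and anther (orange squares) levels, RPM + 1 on a log scale, of the listed genes around members with neighbouring identifiers, in order of identifier number; shading marks genes of the set. On chromosome 3 the excess in leaf spans, by read counts, several neighbouring genes with fractional counts in both libraries. On chromosome 5 it is limited, by read counts, to the shaded pair among adjacent genes. The genes between the shaded ones on chromosome 8 include Solyc08g082160.2 and Solyc08g082170.2, both higher in anther.

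The genes beside the members were examined as a measure that the choice did not use. Within 20 identifier units, 101 other genes, each averaging 1 RPM or more, were the nearest on either side of 59 members. Of these neighbours 28, or 27.7%, were at least 2-fold higher in leaf, beside 17.5% of all 17137 genes of that mean level. At least 2-fold higher in anther were 17, or 16.8%, beside 21.5% of all. Their median log2 ratio was 0.41, and that of all tested genes -0.15. Their median leaf level was 11.2 RPM, far below that of the members. The 17137 genes include the 66 and were not matched to the neighbours by level. Among the 1248 genes of at least 100 RPM, the 66 included, 27.2% were at least 2-fold higher in leaf. Fractional counts were present in 24 of the 101 neighbours. Among the 77 whole-number neighbours 20 were at least 2-fold higher in leaf (26.0%), beside 17.2% of all 12694 whole-number genes tested. The share was 15 of 51 neighbours on the strand of the member and 13 of 50 on the other strand.

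A few neighbours met the ratio of the members while missing the limit on the mean level. Of the 101 neighbours 7 had a ratio of at least 10, beside 1.84% of the 17137 genes. The gene with the largest ratio, Solyc04g007790.2, had such genes on both sides: Solyc04g007780.2 with 11.2 RPM in leaf and 0.161 RPM in anther, and Solyc04g007800.2 with 44.0 RPM and 0.886 RPM. Solyc08g082120.2, second by ratio, had Solyc08g082130.2 beside it, with the values given above. The other four were Solyc04g058160.1, Solyc04g071780.2, Solyc04g079040.2 and Solyc07g008200.2, with 10.6, 25.6, 132 and 34.5 RPM in leaf. In anther Solyc04g058160.1 was not listed and the others had 0.470, 7.17 and 0.322 RPM. Of these 7 neighbours 5 lay on chromosome 4, among them both beside Solyc04g007790.2. How many of the 101 neighbours lay on that chromosome was not computed. Of the 7, only Solyc04g079040.2 had more than 1 RPM in anther, so the other ratios depend largely on the added 1 RPM. The 7 neighbours were named after their values were seen.

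Fractional counts were as common in the set as among other abundant genes. A count that was not whole within 1e-06 reads, in either library, was found for 29 of the 66 genes (43.9%), beside 43.7% of all genes of at least 100 RPM and 27.4% of all listed genes. The headers do not say how fractions arose; reads divided among several places would give them. In 10 of the 29 genes both counts were fractional, in 15 the leaf count alone and in 4 the anther count alone. Among the 25 fractional leaf counts, 12 ended in 0.5, and 3 in 0.3333. In the leaf library 37.9% of the set was fractional, beside 28.9% of all abundant genes, and in the anther library 21.2%, beside 32.4%. The library in which a gene had more reads thus had fractions more often. The same held for the 117 genes of that level at least 10-fold higher in anther (9.38% of 1248), with 15.4% fractional in leaf and 46.2% in anther.

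Genes with fractional counts weighed more in the total than in number. The 29 genes held 59.7% of the leaf reads of the set, and 8.21% of all leaf reads on listed genes, with a median leaf level of 717 RPM. These shares cover all leaf reads of any gene with a count that was not whole in either library. They are not the share of reads that were divided. The 37 genes whole in both libraries had a median leaf level of 575 RPM and held 5.54% of all leaf reads. Their median ratios were close, 14.6 for the fractional and 15.2 for the whole genes. The most abundant genes Solyc02g085950.2, Solyc07g066310.2 and Solyc10g006230.2 were among the fractional ones. Solyc04g007790.2, Solyc01g107460.2 and Solyc08g082190.2, with ratios of 99.7, 83.8 and 77.6, had whole counts in both libraries.

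The height of a gene's highest read peak, deposited beside its reads, was not used in the choice as such, although it comes from the same reads. Divided by the reads it is called the peak share here, a measure of how far the reads of a gene lie in 1 place; the headers do not say how the peak was computed. In leaf the median peak share of the 66 genes was 24.5% (17.6% to 53.1%), beside 24.4% for the 1116 other genes of at least 100 RPM with enough reads. The peak share went with the suffix of the identifier, which in this naming scheme is a version number of the gene model. The 11 members with suffix 1 had peak shares from 30.8% to 53.1% with a median of 39.7%, and the 55 with suffix 2 from 17.6% to 35.5% with a median of 24.0%. The 2 ranges overlapped between 30.8% and 35.5%. The same difference was present outside the set, where the medians were 42.8% for 109 genes with suffix 1 and 24.0% for 1007 genes with suffix 2.

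The suffix also went with level and chromosome. Of 10833 listed genes with suffix 1, 1.28% reached a mean of 100 RPM, against 7.35% of 15090 with suffix 2. Of these abundant genes, 7.91% with suffix 1 and 4.96% with suffix 2 were members. On chromosomes 11 and 12, 99.6% and 99.8% of the listed genes had suffix 1, beside 15.5% on chromosome 1. Each of the 5 members on chromosome 12 had suffix 1. The absence of members on chromosome 11 stands beside these values, and the part of the gene models in it was not tested.

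Between the libraries the peak share of most members moved little. Of 58 members with at least 100 reads in both libraries, 53 differed by at most 5 percentage points. It was lower in leaf for 42 of them (72.4%), with a median difference of -1.50 points, beside 558 of the 1116 other abundant genes. The 58 genes had a median of 8335 reads in leaf and 415 reads in anther. In the 51 anther-high genes with 100 reads in both libraries, the depths were reversed (266 reads in leaf and 10524 in anther), and the peak share was lower in anther for 37 (72.5%). In both sets the library with more reads thus had the lower peak share more often.

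The 3 largest differences in peak share were of both signs. Solyc03g120470.2 had a peak share of 18.5% in anther (383 reads) and 33.4% in leaf (6864 reads), 14.9 points higher in leaf, against the direction of most members. Its level was 595 RPM in leaf and 30.9 RPM in anther, and its counts were whole in both. By peak height per mapped read it was 34.8-fold higher in leaf, and by reads 19.3-fold. Solyc07g008210.2 went from 34.3% in anther to 22.0% in leaf, but its anther value rests on 35.0 reads. Solyc12g099930.1, a suffix 1 gene, went from 58.6% in anther (411 reads) to 46.7% in leaf (5895 reads).

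**Figure D5:**
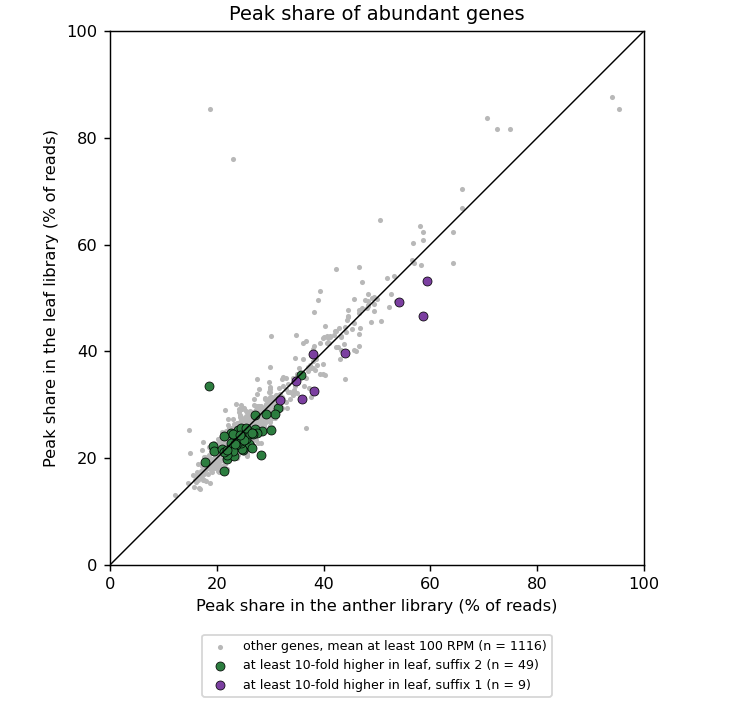
Peak share (highest peak divided by reads, in percent) in leaf against anther for genes of at least 100 RPM with at least 100 reads in both libraries; the line marks equal shares, green points are members with suffix 2, purple points members with suffix 1 and grey points other genes. The 9 purple points lie at 30.8% or more in leaf, and the green point far above the line is Solyc03g120470.2 with 18.5% in anther and 33.4% in leaf.

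The 117 genes that met the same limit on the mean and were at least 10-fold higher in anther formed the counterpart. Their share of reads on listed genes was 20.1% in anther and 0.280% in leaf. Their median ratio towards the anther was 88.3, beside 15.1 towards the leaf for the 66 genes. In the other tissue 69 of the 117 (59.0%) were under 10 RPM, beside 10 of the 66 (15.2%), and their median there was 7.98 RPM, beside 31.5 RPM. By the same rule 24 of the 117 (20.5%) lay in 11 clusters of neighbouring identifiers, beside 4 of the 66 (6.06%). The 2 sets differ in size, on which such a share depends, and the share among all genes of that level was not computed. The 2 shares are therefore not comparable as they stand. These differences between the sets are differences between 2 libraries and were not tested.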

How the data were processed

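Each library had 1 deposited table, and tissues were taken from the labels. Per the file headers, the tables give, for each gene, estimated counts of reads (all hits), a scaled value and a signal, the height of the highest peak, beside the total of mapped reads. The authors deposited the scaled value as transcripts per 1000000, but it equals the estimated count over mapped reads times 1000000 (within 3.42e-08), so it is called RPM here. FastQC was named per the submitters' processing notes; no source used here names the aligner, the counter, the build or the annotation. The anther library had 12411606 mapped reads (69.2% on 24538 listed genes) and the leaf library 11534512 (72.5% on 22893), so 1 read is worth 0.0806 and 0.0867 RPM. Reads carry no named molecular identifiers, so intervals cover counting error only.

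The tables were joined on the identifier, with missing genes as 0. Named genes were the 10 highest in leaf, the 5 largest and 3 smallest ratios, pairs of neighbouring identifiers, the 3 highest and 3 lowest in anther, the 3 largest differences in peak share and the 3 genes just under a ratio of 10. Solyc00g174330.2, the genes at the limit of the mean and the neighbours of members were named after their values were seen. The members, rules and alternatives were chosen with earlier results of these data known. Peak shares used genes with at least 100 reads and no peak above the reads. Counting intervals of ratios are exact conditional Poisson intervals (Clopper-Pearson, 95%) of rounded counts. Computations used Python 3.11.15, pandas 2.3.3 and scipy 1.17.1, with TMM factors from edgeR 4.0.16, and were tested on simulated data. No test between tissues was run and no p-value is given.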

Additional observations from a re-analysis of the deposited data

How the results depend on the processing

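The 66 genes numbered 62 to 82 under 6 of the 12 settings tried for the choice and 45 where the mean had to reach 200 RPM; the other 5 moved the number by over 1.5 times by construction. The shares of reads left their narrow counting intervals under each of the 12 settings. With a ratio of at least 5 there were 173 genes with 28.9% of the leaf and 3.10% of the anther reads, a median anther level of 52.0 RPM, 74 fractional and 19 clustered genes. With a ratio of at least 20 there were 24 genes with 5.58% and 0.113%, 11.7 RPM, 12 fractional and 0 clustered genes. A mean of at least 50 RPM gave 113 genes with 14.6% and 0.833% and a median anther level of 12.2 RPM, and one of at least 200 RPM gave 12.9% and 0.743% and 64.7 RPM. No filter on level gave 315 genes with 15.7% and 0.877%, 2.26 RPM, 113 fractional and 39 clustered genes. Whole-number genes alone were 37, with 5.54% and 0.295%, 0 fractional and 2 clustered genes. The shares were 13.9% and 0.803% with a pseudocount of 0.1 RPM, 13.3% and 0.742% with 5 RPM, and 13.2% and 0.731% where the lower counting bound had to reach 10.

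Scaling to the reads on listed genes gave 82 genes with 12.6% and 0.646%. It added 20 and lost 4, with Solyc10g006230.2 and Solyc08g006930.2 among those lost. The 20 added genes had ratios of 10.4 to 83.0 per mapped read and means under 100 RPM. They entered because dividing by the smaller totals of listed reads raises every level. TMM scaling and a median ratio set to 1 each gave 81 genes with 15.8% and 1.02%, the 66 among them; the median log2 ratio over all genes tested shifted by 0.13, and the median of the 66 genes from 3.92 to 4.06 and 4.07. Identifier distances of 10 and 100 gave 2 and 10 clustered members. Suffix 1 members alone had a median leaf peak share of 39.7%, a split chosen after seeing the data, as was counting chromosome 0 (6 clustered members). No paired analysis was possible because there was a single library of either tissue, and no replicate could be left out for the same reason. Depth limits the anther values of the 8 members with under 100 reads there.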

Other observations

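Beside the second pair of neighbouring members, the gene between them carried the peak height of its neighbour. Solyc05g056060.2 had 416.5 reads in leaf and 341 in anther, but a highest peak of 9982 and 878.5, the values also deposited for the member Solyc05g056070.2. Of 206 other genes listed within 20 identifier units of a member, 3 had a peak higher than their reads in either library, and this was the one with the peak values of a member.

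By peak height per mapped read in place of reads, 63 of the 66 genes were at least 10-fold higher in leaf, with a median of 14.4-fold and a range of 9.33 to 119. For 50 of the 66 this ratio was below that of the reads. The peak is part of the same reads that the choice used, so a ratio near or over 10 was largely fixed in advance and is no separate support.

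Leaving out the reads of the 66 genes shifted the ratios of the other genes per read on a listed gene. No such removal was made per mapped read. Over the 17071 remaining genes averaging 1 RPM or more, the median log2 ratio of leaf to anther was -0.15 per mapped read and -0.22 per read on a listed gene. It was -0.04 when the reads of the 66 genes were left out of those totals, as follows from their unequal shares of the libraries. The 117 anther-high genes, with 20.1% of the anther and 0.280% of the leaf reads on listed genes, stayed in the totals. The value of -0.04 therefore reflects a removal on 1 side only, and does not mean that the 66 genes account for the offset between the libraries.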
